A study of Mus musculus with 2 samples.

Results

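Notch signalling was examined through 10 genes in the stomach of the newborn mouse: the receptors Notch1, Notch2, Notch3 and Notch4, the ligands Dll1, Dll4, Jag1 and Jag2, and the target genes Hes1 and Hey1. The genes were chosen by name for their place in the pathway, and all 10 were found among the 43346 genes with an Ensembl ID in each table. The samples were 2 whole stomachs of strain B6NCrl, each from 1 pup of the same dam on postnatal day 0, with 1 total RNA library per pup. The labels give neither a treatment nor a second condition, and the sex of the pups was not collected. The libraries held 51524479 expected counts (estimated reads) in pup 1 and 49983574 in pup 2. Levels are in TPM, an abundance relative to all transcripts of the library that allows for transcript length, and a mean is given ± SD over the 2 pups (n = 2). Both pups belong to 1 group, so levels and their spread are described and no test between conditions exists.

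Notch receptors are single-pass membrane proteins that are activated by ligands on a neighbouring cell. Ligand binding leads to cleavage of the receptor, first outside the membrane by an ADAM protease and then within it by γ-secretase, and the freed intracellular domain enters the nucleus, where it joins RBPJ and a Mastermind protein to switch on genes of the Hes and Hey families. In the gut the pathway keeps epithelial progenitors from entering secretory and endocrine fates, and in blood vessels it governs arterial identity and the coating of vessels by mural cells.

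All 10 genes were detected, which here means 1 TPM or more in each pup over all transcripts of the gene. With protein-coding transcripts alone 9 of the 10 were, since that of Notch4 lay under the limit in both pups. Hes1 stood apart from the other genes at 59.8 ± 4.20 TPM, above 83.9% of the 13125 protein-coding nuclear genes detected. The other 9 genes lay between 2.27 and 9.15 TPM. Their expected counts ran from 199 for Notch4 in pup 2 to 3949 for Notch2 in pup 1. The median level over the 10 genes was 3.37 TPM in pup 1 and 3.60 TPM in pup 2. In RNA of a whole organ, fewer cells of a type and less RNA per cell cannot be told apart.

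**Figure D1:**
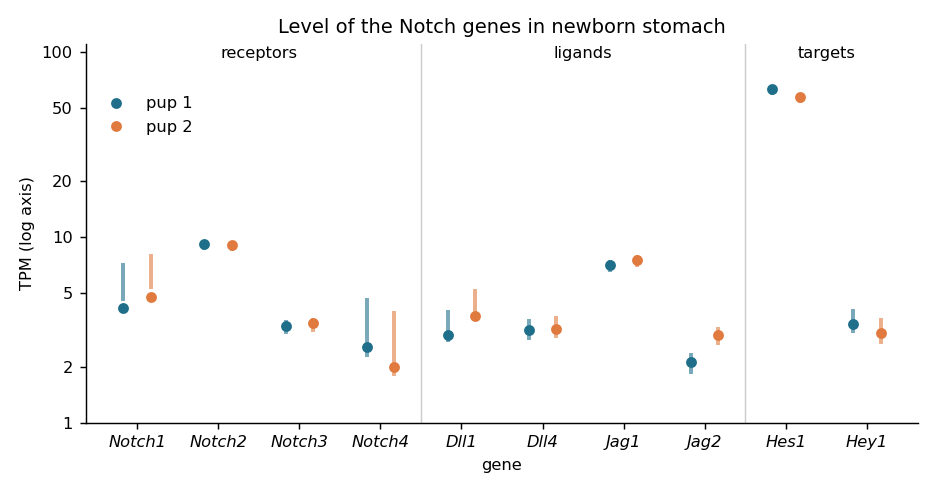
TPM of the 10 genes on a log axis, grouped by role; points are the deposited TPM of pup 1 and pup 2, and vertical lines run between the deposited credibility bounds, which belong to the posterior mean estimate. Hes1 lies at 62.7 and 56.8 TPM and the other genes below 10, and the points of Notch1 lie below their lines.

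Notch2 led the receptors. This receptor (ENSMUSG00000027878.10, chromosome 3, 98013527 to 98150361, plus strand, mm10) had 9.18 TPM in pup 1 and 9.11 TPM in pup 2, from 3949 and 3767 counts. It held 47.5 ± 0.484% of the summed TPM of the 4 receptors. The pups were nearly equal, and the deposited bounds (8.78 to 9.34 TPM in pup 1 and 8.69 to 9.27 TPM in pup 2) overlapped.

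Notch1, the receptor best known from intestinal progenitors and T cells (ENSMUSG00000026923.11, chromosome 2, 26457903 to 26516663, minus strand), had 4.14 TPM in pup 1 and 4.79 TPM in pup 2. Notch2 exceeded it 2.06 ± 0.223-fold. Pup 2 was higher, and the bounds of the pups overlapped. The deposited TPM of Notch1 lay below its own lower bound in both pups, at 4.63 TPM in pup 1 and 5.38 TPM in pup 2. The bounds belong to the posterior mean estimate, which was 5.78 TPM in pup 1 and 6.59 TPM in pup 2. No other gene of the 10 had a TPM outside its bounds.

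Notch3, a receptor of vascular smooth muscle and pericytes (ENSMUSG00000038146.7, chromosome 17, 32120820 to 32166852, minus strand), had 3.32 TPM in pup 1 and 3.43 TPM in pup 2. The pups differed by less than their bounds. Notch2 exceeded Notch3 2.71 ± 0.0771-fold, and Notch1 exceeded it in both pups with bounds that did not overlap.

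Notch4, a receptor expressed mainly in endothelium (ENSMUSG00000015468.10, chromosome 17, 34564268 to 34588503, plus strand), had 2.55 TPM in pup 1 and 1.99 TPM in pup 2, from 229 and 199 counts. This was the lowest mean of the 10 genes, though Jag2 was lower in pup 1. With the posterior mean TPM, Jag2 was the lowest at 2.52 TPM and Notch4 had 3.13 TPM. Most of that TPM did not come from the transcript that encodes the receptor. Notch4-201, the only protein-coding transcript of the 12 in the tables, is 6591 nucleotides long and had 199 and 181 counts in pups 1 and 2. It nevertheless held only 29.0% of the TPM of the gene in pup 1 and 35.2% in pup 2, that is 0.74 and 0.70 TPM. The 11 other transcripts together took 30.5 counts of pup 1 and 18.2 of pup 2, and held 71.0% and 64.8% of the TPM. TPM divides reads by transcript length, so a few reads on a short transcript weigh as much as many on a long one. The mean transcript length that the tables give for Notch4, weighted by these shares, was 2273 nucleotides in pup 1 and 2615 in pup 2.

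The transcripts behind most of this share are short and lie within the gene. Notch4-209, annotated as a retained intron and 352 nucleotides long, held 22.82% and 25.01% of the TPM of Notch4 in pups 1 and 2 from 6.08 and 5 counts. Its TPM was 0.58 in pup 1 with bounds of 0.0594 to 1.34, and 0.50 in pup 2 with bounds of 0.0741 to 1.19, so it is poorly determined. Notch4-210, a processed transcript of 619 nucleotides, held 19.5% in each pup from 10.7 and 8 counts. Its TPM was 0.50 in pup 1 with bounds of 0.138 to 0.976, and 0.39 in pup 2 with bounds of 0.0261 to 0.824. Notch4-210 is thus poorly determined too, and the like share in the pups does not speak for precision. The first exons of both are shown here because they let a reader see what these reads can come from. Bases in capitals are coding sequence of Notch4-201, and bases in lower case lie in its introns. In Notch4-209 the exon spans chr17:34565136-34565382 (mm10, plus strand), with 165 bases of intron 1 before 82 bases of coding exon 2. In Notch4-210 it spans chr17:34587041-34587214, with 76 bases of intron 28 before 98 bases of coding exon 29.
Notch4-209, first exon: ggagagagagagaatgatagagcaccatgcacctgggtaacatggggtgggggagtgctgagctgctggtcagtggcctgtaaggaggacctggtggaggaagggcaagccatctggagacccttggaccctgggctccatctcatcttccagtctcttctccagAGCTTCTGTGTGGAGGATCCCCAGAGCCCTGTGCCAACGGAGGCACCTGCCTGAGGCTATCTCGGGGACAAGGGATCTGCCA
Notch4-210, first exon: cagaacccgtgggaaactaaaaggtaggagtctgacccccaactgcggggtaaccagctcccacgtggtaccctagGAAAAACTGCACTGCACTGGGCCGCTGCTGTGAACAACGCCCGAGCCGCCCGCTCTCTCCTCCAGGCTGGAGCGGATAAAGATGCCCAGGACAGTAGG

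Within these first exons, reads from the capital stretches fit the receptor transcript as well as the fragment. Only reads that reach the lower-case stretches tell them apart there. Whether such reads stem from these transcripts or from unspliced RNA of the gene was not tested. The printed exons cover 247 of the 352 bases of Notch4-209 and 174 of the 619 of Notch4-210, and the remainder was not examined.

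**Figure D2:**
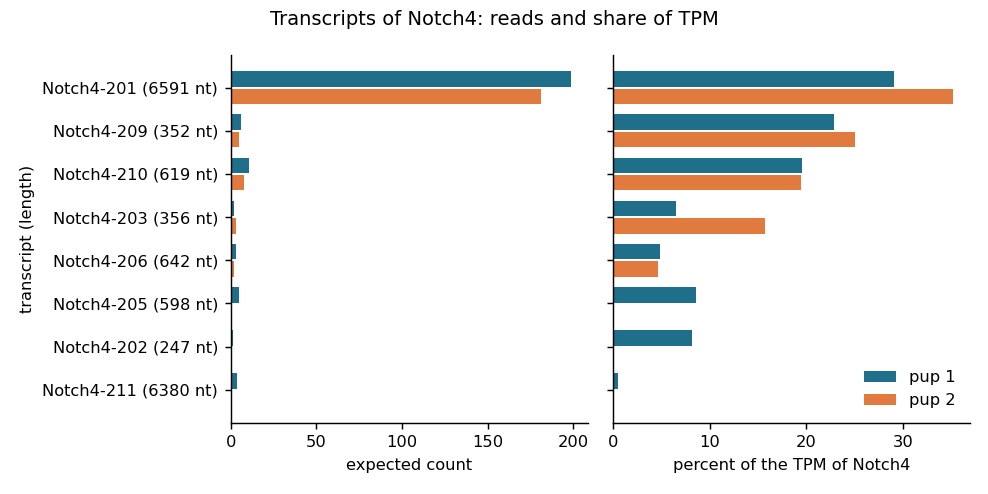
Expected counts (left) and percent of the TPM of Notch4 (right) for the transcripts with a TPM above 0 in either pup, with pup 1 above pup 2 in each pair. Notch4-201 takes most of the expected counts, 199 and 181, but 29.0% and 35.2% of the TPM.

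A split of this kind was uncommon. Among 9477 detected protein-coding genes with more than 1 transcript in the tables, the median share of TPM in protein-coding transcripts was 94.4%, and 4.82% of them had a share at or below that of Notch4. Of the 10 Notch genes, 4 had all of their TPM in protein-coding transcripts: Notch2, Notch3, Dll4 and Jag2. Notch2, Notch3 and Jag2 have only 1 annotated transcript each, which is protein-coding, so their share was fixed in advance. Dll4 has 2. Jag1 had 98.4 ± 0.310%, Hes1 94.95 ± 2.67%, Hey1 94.8 ± 3.26% and Notch1 94.0 ± 2.05%. With the posterior mean TPM the share of Notch1 was 66.3% in pup 1 and 69.2% in pup 2. Of its 11 transcripts, 8 in pup 1 and 9 in pup 2 had a deposited TPM of 0. Dll1 had 83.9 ± 4.00%, the remainder being mostly Dll1-204, a retained intron of 751 nucleotides, which took 12.0 and 12.9 counts in the pups and made up 15.0% of the TPM of pup 1 and 13.2% of that of pup 2. The main transcript was the same in both pups for all 10 genes and was protein-coding in each. For Notch2, Notch3 and Jag2, with 1 transcript each, this could not have come out otherwise.

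Counting protein-coding transcripts alone, an alternative chosen after the data were seen, left Notch4 at 0.72 ± 0.0283 TPM and raised the distance to Notch3 to 4.69 ± 0.292-fold, against 1.51 ± 0.298-fold over all transcripts. The share of Notch4 in the receptor sum was then 4.13 ± 0.286%, against 11.8 ± 2.11%. The receptor transcript of Notch4 lay below Jag2, the next gene in that order, in both pups and outside its bounds.

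**Figure D3:**
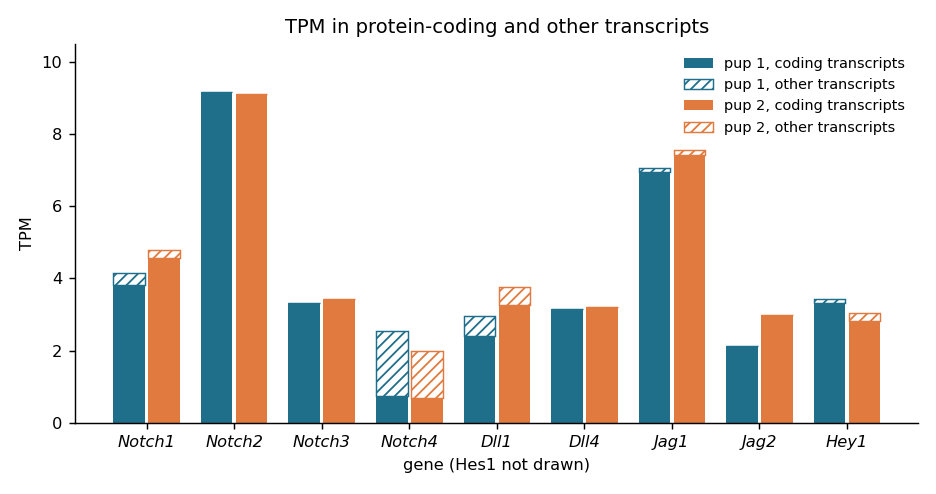
TPM of 9 of the 10 genes in pup 1 and pup 2 (bars from 0), divided into protein-coding transcripts (filled) and other transcripts (hatched); Hes1 is left out because of its level. Notch4 is mostly hatched, with 0.74 and 0.70 TPM filled.

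Among the ligands, Jag1 led. Jag1, a ligand of vessels and mesenchyme as well as of epithelium (ENSMUSG00000027276.7, chromosome 2, 137081456 to 137116644, minus strand), had 7.06 TPM in pup 1 and 7.55 TPM in pup 2, from 1592 and 1631 counts. It held 44.6 ± 2.16% of the summed TPM of the 4 ligands. The bounds of the pups overlapped, and in each pup Jag1 lay above the other 3 ligands.

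The other ligands lay close together. Dll1, the Delta ligand of crypt progenitors in the intestine (ENSMUSG00000014773.9, chromosome 17, 15367354 to 15376872, minus strand), had 2.96 TPM in pup 1 and 3.77 TPM in pup 2. Dll4, which acts in sprouting vessels and in the intestinal epithelium (ENSMUSG00000027314.6, chromosome 2, 119325784 to 119335962, plus strand), had 3.15 TPM in pup 1 and 3.21 TPM in pup 2. Their order differed between the pups: Dll4 was above Dll1 in pup 1 and below it in pup 2. Jag2, known from squamous epithelia such as the tongue and palate (ENSMUSG00000002799.5, chromosome 12, 112907819 to 112929776, minus strand), had 2.12 TPM in pup 1 and 2.98 TPM in pup 2. It was the lowest ligand in each pup, and Jag1 exceeded it 2.93 ± 0.563-fold. The summed TPM of the 4 ligands was 15.3 in pup 1 and 17.5 in pup 2, and that of the 4 receptors was 19.2 and 19.3.

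The target genes differed widely in level. Hes1, a repressor of proneural genes (ENSMUSG00000022528.7, chromosome 16, 30064384 to 30067796, plus strand), had 62.7 TPM in pup 1 and 56.8 TPM in pup 2, based on 3469 and 2923 counts. Hey1, a related repressor known from arteries (ENSMUSG00000040289.4, chromosome 3, 8663359 to 8667256, minus strand), had 3.42 TPM in pup 1 and 3.04 TPM in pup 2, from 321 and 267 counts. Hes1 exceeded Hey1 18.5 ± 0.240-fold, and pup 1 was the higher for both.

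In the order of mean TPM the genes ran Hes1, Notch2, Jag1, Notch1, Notch3, Dll1, Hey1, Dll4, Jag2 and Notch4. Of the 9 neighbouring pairs, 3 had the same order in both pups with bounds that did not overlap in either: Hes1 above Notch2, Notch2 above Jag1, and Notch1 above Notch3. The other 6 pairs did not meet this. Jag1 was above Notch1 in both pups with overlapping bounds, and Dll4 was above Jag2 in both pups with bounds apart in 1. For the other 4 pairs, Notch3 with Dll1, Dll1 with Hey1, Hey1 with Dll4, and Jag2 with Notch4, the order differed between the pups. With protein-coding transcripts alone the order below Notch3 was Dll4, Hey1, Dll1, Jag2 and Notch4. Of the 9 neighbouring pairs of that order 5 were separated: the 3 above, Jag1 above Notch1, and Jag2 above Notch4.

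Between the pups, none of the 10 genes differed by the rule used, which asked for bounds that do not overlap, TPM at least 2-fold apart and a mean count of at least 100. Over all 13951 genes with that many counts, 59 met it, or 0.423%, so a count of 0 among 10 lies near the background. The count was also 0 at 1.5-fold, against 1.63% of all genes, and 0 at 2-fold when the count limit was lowered to 10, against 0.854% of the 18492 genes then covered. No p was computed, since each pup is 1 library. Without the fold limit, 2 of the 10 genes had bounds that did not overlap, Jag2 and Hes1, against 21.2% of all genes. The ratio log2((TPM of pup 1 + 1)/(TPM of pup 2 + 1)) had a median of -0.03 over the 10 genes and of -0.03 over the 13951.

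Jag2 took 346 counts of pup 1 and 469 of pup 2, and its log2 ratio was -0.35. It was lower in pup 1, with bounds of 1.87 to 2.31 TPM against 2.68 to 3.21 TPM in pup 2. Its ratio of scaled counts was 0.728 (95% exact binomial interval 0.632 to 0.838). Hes1 was higher in pup 1, with bounds of 59.9 to 64.3 TPM against 53.9 to 58.7 TPM in pup 2 and a ratio of 1.17 (1.11 to 1.23). Dll1 had a ratio of 0.764 (0.664 to 0.879), Notch1 0.865 (0.807 to 0.927) and Hey1 1.19 (1.01 to 1.4003), and their TPM bounds overlapped. These intervals cover counting error only. They excluded 1 for 5 of the 10 genes and for 40.7% of all genes with enough counts, so such a ratio was common between the pups. In all, the members' log2 ratios ran from -0.35 for Jag2 to 0.25 for Notch4, and 95% of all genes lay between -0.37 and 0.34. The added 1 TPM draws this ratio towards 0 for genes of low TPM, so their place in that range depends on it. With DESeq2-scaled counts Jag2 had -0.45, and no range of all genes is given for that ratio. In protein-coding transcripts alone Notch4 had 0.03, and the highest log2 ratio was 0.20 for Hes1.

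**Figure D4:**
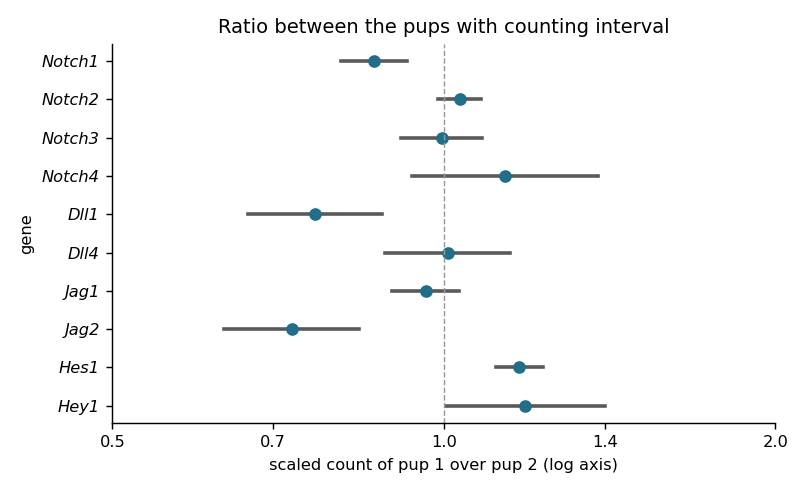
Ratio of the counts of pup 1 over pup 2, scaled for library size, on a log axis for each gene, with 95% exact binomial intervals that cover counting error only. Jag2, Dll1 and Notch1 lie below 1 and Hes1 and Hey1 above it, and the other 5 intervals include 1.

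None of the squamous, mural or endothelium markers met the 2-fold rule. Bounds of the pups did not overlap for 4 of 5 squamous, 4 of 8 mural and smooth muscle and 1 of 12 endothelium markers, against 21.2% of all genes. The same held for 6 of 7 glandular epithelium and 3 of 4 fibroblast markers, and for 24 of the 50 markers of all lists with enough counts. The glandular markers summed to 98133 TPM in pup 1 and 104126 TPM in pup 2, with 2 of the 7 higher in pup 1. The glandular list includes Epcam and Cdh1, which are not confined to glandular epithelium. Bounds are narrow at high counts, as for Krt4 (322957 and 333995 counts), so 21.2% is not a like background. All 5 squamous epithelium markers were lower in pup 1, with summed TPM of 6943 in pup 1 and 7626 in pup 2, led by Krt4 (3988 ± 207 TPM) and Krt13 (2575 ± 237 TPM). The 8 mural and smooth muscle markers summed to 4967 TPM in pup 1 and 4183 TPM in pup 2, and 5 of the 8 were higher in pup 1. They were led by Acta2 (3139 ± 309 TPM) and Tagln (695 ± 133 TPM). The 4 with bounds apart were Acta2, Tagln, Cnn1 and Myh11, all higher in pup 1. Bounds overlapped for Kcnj8 (43.1 and 43.3 TPM in pups 1 and 2), Rgs5 (10.4 and 11.0), Pdgfrb (5.86 and 6.11) and Cspg4 (4.18 and 3.85). The higher sum in pup 1 therefore does not hold for mural markers such as Pdgfrb and Rgs5. The 12 endothelium markers summed to 106 and 105 TPM, led by Esam (25.2 ± 1.37 TPM) and Pecam1 (17.5 ± 0.141 TPM), with every marker detected. None of the markers in these lists was at 0. Their part in the differences of Jag2, Dll1 and Hes1 was not tested.

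The labelled organ fits its markers: all 7 genes of the glandular epithelium list were detected, led by Cym (62296 ± 3554 TPM) and Pga5 (19594 ± 603 TPM). The 4 fibroblast markers, led by Col3a1 (1086 ± 25.7 TPM) and Col1a1 (723 ± 32.8 TPM), and the 5 enteric neuron and glia markers, led by Uchl1 (50.7 ± 1.08 TPM) and Elavl4 (13.9 ± 1.83 TPM), were detected too. Ghrl (406 ± 24.4 TPM) and Chga (26.5 ± 2.41 TPM) led the endocrine list. Markers of neighbouring organs were also measured, with Ttr (58.8 ± 2.29 TPM) and Afp (34.0 ± 18.7 TPM) for liver, Cela2a (17.4 ± 2.62 TPM) and Prss2 (5.17 ± 1.15 TPM) for pancreas, and Vil1 (10.3 ± 1.00 TPM) and Cdx1 (0.23 TPM in each pup) for intestine. Of the 55 markers, 50 had enough counts for the 2-fold rule. Only 1 of these differed by it, against 0.423% of all genes: Afp, with 20.8 TPM in pup 1 and 47.2 TPM in pup 2. All 3 liver markers were lower in pup 1.

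Several of the genes overlap others, and no label or header says whether reads were counted by strand. Expected counts were whole numbers, within 0.005, for 7 of the 10 genes. The 3 that were not, Notch1, Notch3 and Dll1, each overlap a gene on the opposite strand. Notch1 shares 1488 bases with 0610009E02Rik (188 and 115 counts in pups 1 and 2) and 414 with Gm13568 (103 and 107 counts). Notch3 shares its span with Gm17276 (20.4 and 16.2 counts) and Dll1 with A930024N18Rik (11.1 and 17.1 counts). An overlap on the opposite strand did not always go with counts that were not whole. Dll4 overlaps Gm14207 (210 and 195 counts) and Notch4 overlaps Gm20462 (0 and 1 counts), and both had whole counts. Reads in these overlaps may be divided between the genes in more than one way.

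The machinery that makes and reads the signal was broadly present. Of 61 other pathway genes, 54 were detected, with a median of 8.95 TPM in pup 1 and 9.13 TPM in pup 2. None of the 55 with enough counts differed between the pups by the same rule, against 0.423% of all genes. For 10 of the 55 the bounds did not overlap, against 21.2% of all genes, and 3 of these were higher and 7 lower in pup 1.

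The other ligands and ligand-like proteins were led by Dlk1, an imprinted, membrane-bound protein without the domain that Delta ligands use to bind Notch, at 161 ± 3.11 TPM, and by Egfl7, a secreted factor of endothelium, at 45.0 ± 2.81 TPM. Dll3, which does not activate Notch in a neighbouring cell, was under the limit at 0.79 TPM in pup 1 and 0.83 TPM in pup 2. Of the 5 ubiquitin ligases listed here under ligand endocytosis, Neurl3 (20.9 ± 0.0212 TPM) and Mib1 (9.84 ± 0.219 TPM) led. A part of Neurl3 in that step was not tested. Neurl1b was under the limit in pup 1 with 0.95 TPM and above it in pup 2 with 1.21 TPM.

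All 10 genes of receptor cleavage were detected. They were led by the γ-secretase subunits Psenen (172 ± 5.51 TPM) and Ncstn (70.2 ± 2.91 TPM), while the receptors they act on lay between 2.27 and 9.15 TPM. All 6 glycosyltransferases that modify Notch receptors were detected, led by Rfng, a Fringe enzyme, at 17.7 ± 3.08 TPM and Poglut1 at 13.9 ± 0.156 TPM. Both Fringe genes whose bounds did not overlap went opposite ways: Rfng had 15.6 TPM in pup 1 and 19.9 TPM in pup 2, and Mfng had 6.19 TPM in pup 1 and 4.76 TPM in pup 2.

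In the nuclear complex, the corepressors Ctbp1 (108 ± 0.396 TPM) and Hdac1 (94.9 ± 0.0636 TPM) led. Rbpj, the DNA-binding partner of all Notch receptors, had 8.95 TPM in pup 1 and 9.93 TPM in pup 2, lower in pup 1 with bounds that did not overlap. Rbpjl, a relative of Rbpj known from the pancreas, was under the limit at 0.28 TPM in pup 1 and 0.31 TPM in pup 2. All 13 inhibitors and turnover genes were detected, led by the ubiquitin ligase Nedd4 (159 ± 12.2 TPM) and Dtx3, a Deltex family gene (26.0 ± 3.03 TPM). Nrarp, a Notch target that dampens the signal, had 21.62 TPM in pup 1 and 21.61 TPM in pup 2.

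Hes1 was the highest of the Hes and Hey genes. Of the 7 others, 3 were detected: Hes6, which counteracts Hes1 in neural cells, at 35.96 ± 1.44 TPM, Heyl, a target known from vascular smooth muscle, at 4.66 ± 0.580 TPM, and Hey2. Hes2 had 0.75 TPM in pup 1 and 0.45 TPM in pup 2, Hes7 had 0.25 and 0.35 TPM, and Hes5, a target in the developing nervous system, had 0.21 and 0.31 TPM from 10.2 and 8.99 counts. Hes3 had 0 counts in both pups, and a count of 0 allows up to 3 counts.

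**Figure D5:**
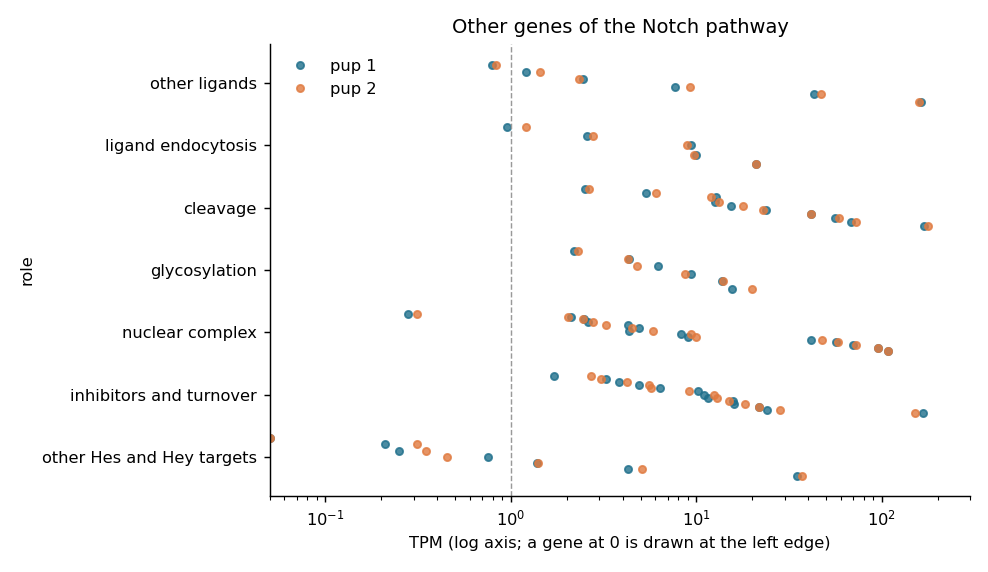
TPM of the 61 other pathway genes on a log axis by role, with a point for pup 1 and a point for pup 2; the dashed line is the limit of 1 TPM and a gene at 0 is drawn at the left edge. All 10 cleavage genes lie right of the line, and 4 of the 7 other Hes and Hey genes lie left of it.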

How the data were processed

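Total RNA of 2 stomachs, in 1 group, was sequenced with 1 library per pup, from 10 ng of RNA above 200 nucleotides, per the labels. The authors deposited expected counts, which assign each read to genes and transcripts without allowing for depth. TPM as deposited by the authors has a fixed sum per library and comes with credibility bounds of its posterior mean. The percent of TPM that each transcript holds within its gene was also deposited. Assembly mm10 and GENCODE M4 are named in the text deposited with each sample, while for aligner and quantification program the sources used here give no name. The posterior mean gives some TPM to every annotated transcript of the 10 genes, those without reads included.

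Symbols, transcript types and coordinates came from GENCODE M21 of the same assembly, matched by ID without version (42462 of 43346 genes). Of 60350 transcripts of detected protein-coding genes, 1074 found no match and counted as not coding. The transcript sequences printed are those of GENCODE M21, and their lengths equal those in the tables. Values were computed in Python 3.11.15 with pandas 2.3.3, numpy 2.4.6 and scipy 1.17.1, and drawn with matplotlib 3.10.9. After spike-ins and tRNA entries were removed, rounded counts were scaled by TMM in edgeR 4.0.16, and by DESeq2 1.42.0 as an alternative (R 4.3.3). The exact binomial (Clopper-Pearson) intervals use TMM-scaled library sizes. A difference between pups needed bounds apart, 2-fold or more and a mean count of at least 100. PCR copies are not independent molecules, so intervals and floors cover counting error only. The labels name separate stomachs, so the libraries were counted as 2 samples.

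The members and gene lists were chosen with earlier results of these data known, and the pathway list was divided into roles after its values were seen. All 10 members are named. Of each pathway role the text names the 2 genes with the highest mean TPM, those not detected and any that differed, and of each cell type list the top 2. Rbpj, Nrarp, Mfng, Hey2, Epcam, Cdh1 and the further mural and smooth muscle markers were named after their values were seen. No likeness of pattern was measured, since there are only 2 samples. The sequences of the proteins and the promoters were not used here. 1 marker gene is not reported here.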

Additional observations from a re-analysis of the deposited data

How the results depend on the processing

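All 10 genes were detected at a TPM of at least 0.1, with the posterior mean TPM, with TPM rescaled over nuclear protein-coding genes and in each pup alone, but 9 were with protein-coding transcripts alone (not Notch4) and 3 at a TPM of at least 5 (Hes1, Notch2 and Jag1). At that limit 35 of the 61 other pathway genes were detected. The median level of the 10 genes, 3.49 TPM, was 3.67 with the posterior mean and 4.13 with rescaled TPM. The share of Notch2 among receptors was 41.6% with the posterior mean and 52.5% with protein-coding transcripts alone, and 5 neighbouring pairs were then separated. With no fold limit, 2 genes differed between pups. None did at 1.5-fold, with genes of 10 or more counts added, or with binomial intervals in place of the bounds at 2-fold. The median log2 ratio of the 10 genes was between -0.04 and 0.01 over its alternatives, a range too small to give a direction. Notch4 had the fewest counts of the 10 genes, and its short transcripts rest on under 11 counts each. No paired analysis was possible because the labels name 1 group.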
